A study of Mus musculus with 6 samples.

Results

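Inflammasomes are cytosolic complexes in which a sensor of microbial products or cell damage recruits the adaptor ASC and activates caspase-1, which matures interleukin-1β and interleukin-18 and cleaves gasdermin D into a pore. Caspase-11, the product of mouse Casp4, binds bacterial lipopolysaccharide and cleaves gasdermin D on its own. In myeloid cells many of these genes are kept at a basal level and are raised by NF-κB or interferon signals before the complex assembles. The mRNA levels of 10 genes of this system were compared here in cultured mouse bone marrow (BM) cells. Members were the probes whose deposited gene name was Nlrp3, Nlrc4, Nlrp1b, Aim2, Mefv or Naip5 (sensors), Pycard (adaptor), Casp1 or Casp4 (caspases) or Gsdmd (pore). All 10 genes were found, with 17 of the 56605 probes on the array, and they made up 10 of the 21862 genes tested.

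Total RNA was hybridized to 6 Cy3 arrays, 2 for each of 3 cultures from female C57BL/6J mice aged 6 to 8 weeks. MDSC (conv.) are myeloid-derived suppressor cells made from whole BM in 4 days with 40 ng/mL GM-CSF. 6G- BM-MDSC were made the same way from BM depleted of cells bearing the granulocyte marker Ly-6G, and DCs are dendritic cells grown from whole BM for 8 days with 20 ng/mL GM-CSF, so the DC comparisons differ in culture time, cytokine dose and dish surface (non-treated for DCs and treated for tissue culture for MDSCs) as well as in cell type. The labels do not say that 2 replicates came from separate mice or cultures, so p-values measure only the spread between these arrays, which may be technical for most genes. In all 3 groups, however, some probes of Naip1, Naip6 and Naip7 were well above background on replicate 1 and not on replicate 2, as described with the NAIP family. In such bulk RNA, fewer cells of a type and less RNA per cell cannot be told apart.

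Levels are given as log2 of the processed signal over the 75th percentile of the same array, so that 0 is the 75th percentile, and they compare arrays within a probe, never probe with probe. A gene is read from its brightest probe. Differences are log2 values from limma with the standard error (SE), and adjusted p-values (Benjamini-Hochberg over all genes) under 0.05 are called. The 75th percentile lay between 560 and 633 intensity units, between 55.6% and 59.9% of probes were well above background on an array, and no spot was saturated. All 17 member probes were well above background on all 6 arrays. The arrays shared 1 slide, the 4 MDSC arrays in its row 1 and the DC arrays in its row 2, and row and culture cannot be told apart in any comparison with DCs. Markers fitted the labels in part: against either MDSC group, DCs had higher signal for 8 of 9 dendritic cell markers and 6 of 7 macrophage markers, and lower signal for 11 of 12 neutrophil markers. The remaining dendritic cell marker, Flt3, was called higher in 6G- BM-MDSC than in DCs (0.50, adjusted p = 0.0155) and was not called in MDSC (conv.). Of 6 monocyte markers, Ly6c2 was higher in each MDSC group than in DCs, while Csf1r was lower in MDSC (conv.) and Ms4a6c in 6G- BM-MDSC.

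The first 30 bases of the probes on which the results turn are shown 5′ to 3′ as deposited, with mm9 positions, because probes for the same gene did not always give the same answer. Mefv and Casp4 are the genes that were most raised in MDSC groups. Nlrp1b was the gene most lowered, on its brightest probe, while its other 2 probes were not called. For Naip5 and Aim2 the brightest probe and the second probe are given. The stretch of the brightest Naip5 probe is bases 16 to 45, and its capitals mark letters that runs of 16 bases also place in promoters of other genes.
Mefv, chr16:3707274-3707333, minus strand: atggatttcaggttactcttgactgtggtc
Casp4, chr9:5336658-5336717, plus strand: ccagcctaagcaacacagtgggattctgtt
Nlrp1b, chr11:70966612-70966671, minus strand: atgaatgggtctcagtgaaaaggatgggct
Aim2, brightest probe, chr1:175385660-175385719, plus strand: cgtctgcagtgaccaaggccattaatattt
Aim2, second probe, chr1:175396036-175396095, plus strand: ctaagaaatcagtgatattggggtatgtga
Naip5, brightest probe, chr13:100981843-100981902, minus strand: catggtcAGGCTGGAGAGATGGCTCAGTGG
Naip5, second probe, chr13:101015657-101015716, minus strand: aagatgctgagaggtggcaaagccaggtac

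Against DCs, 3 of the 10 genes were higher in MDSC (conv.) (Mefv, Casp4 and Nlrc4) and 1 was lower (Nlrp1b). In 6G- BM-MDSC the same 3 genes were higher and 2 were lower (Nlrp1b and Naip5). As background, MDSC (conv.) had 13.4% of all 21862 genes called higher and 15.8% called lower, and for 6G- BM-MDSC these shares were 15% and 17.8%. The 2 comparisons share the DC arrays. The median difference of the 10 genes was 0.02 for MDSC (conv.) and 0.05 for 6G- BM-MDSC, beside -0.03 and -0.04 over all genes. The adaptor, caspase-1, the pore-forming gasdermin D and the sensors Nlrp3 and Aim2 were not called on their brightest probes in either comparison. Within a group, the 2 arrays of a member lay between 0.02 and 0.28 log2 units apart.

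**Figure D1:**
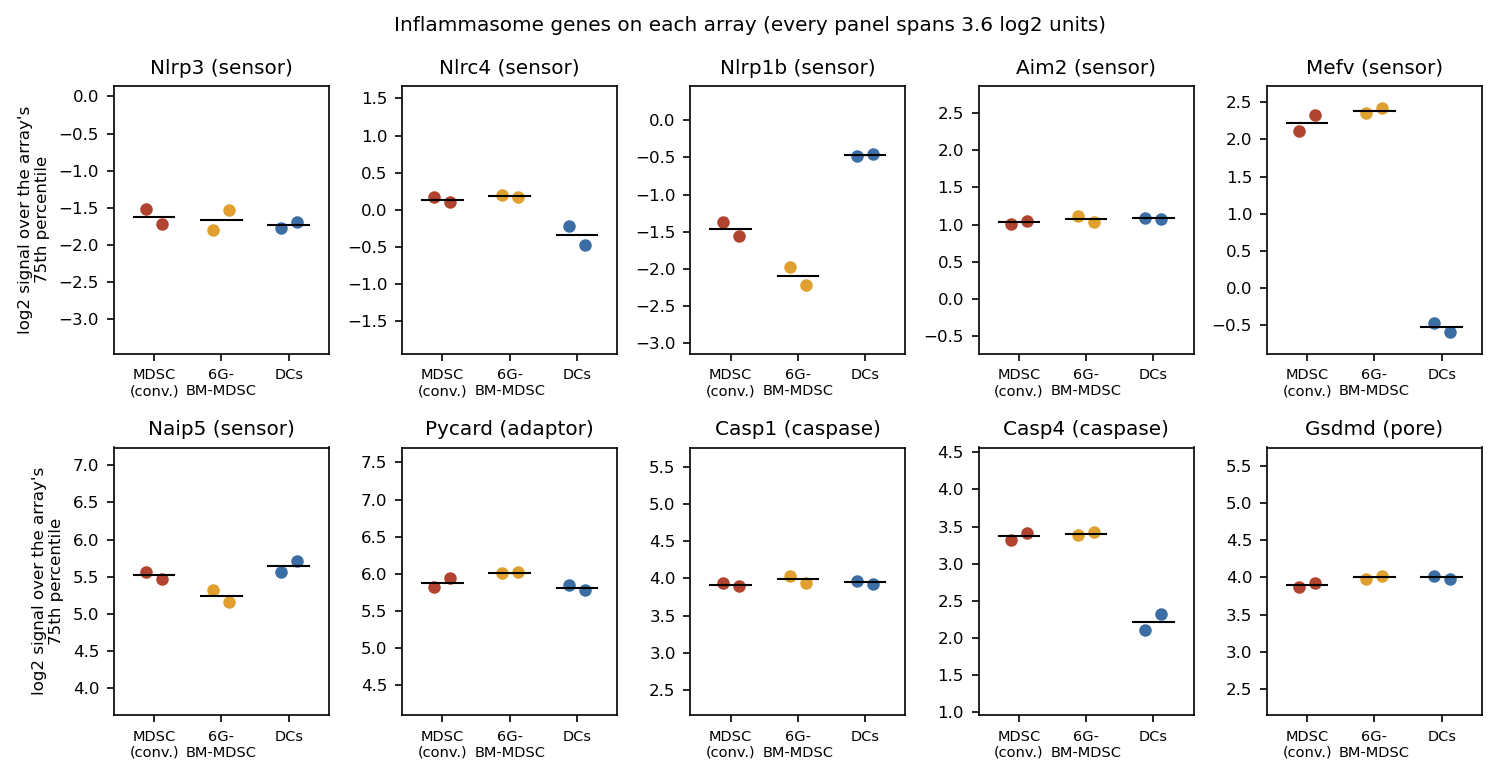
Log2 signal over the 75th percentile of the array (y axis) for the brightest probe of the 10 genes in the 3 cultures (x axis), with 1 point per array and a line at the mean of 2 arrays. All panels span the same number of log2 units. The MDSC points of Mefv and Casp4 lie above the DC points, those of Nlrp1b lie below them, and Casp1, Gsdmd and Aim2 lie at nearly the same height in all 3.

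Among the sensors, Mefv differed most. It encodes pyrin, an inflammasome sensor known to be abundant in granulocytes and monocytes. Its log2 level was 2.11 and 2.34 for MDSC (conv.), 2.35 and 2.43 for 6G- BM-MDSC, and -0.47 and -0.59 for DCs. Both MDSC groups thus lay far above DCs with no overlap. The log2 difference from DCs was 2.75 (SE 0.11, 95% interval 2.47 to 3.03, adjusted p = 0.000318), or 6.73-fold, for MDSC (conv.), and 2.92 (SE 0.11, adjusted p = 0.000279), or 7.55-fold, for 6G- BM-MDSC. The second Mefv probe (chr16:3707975-3708034) gave the same direction, with log2 differences of 1.94 (adjusted p = 0.00206 over all probes) and 2.18 (adjusted p = 0.00144).

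The rise in Mefv ran alongside markers of granulocytes and the monocyte marker Ly6c2. The summed linear level of 12 neutrophil markers, in multiples of the array's 75th percentile, was 1649 and 1679 for MDSC (conv.), 1340 and 1603 for 6G- BM-MDSC, and 518 and 530 for DCs, and 11 of the 12 were called higher in each MDSC group. The sum over 5 basophil and mast cell markers was 72.2 on both MDSC (conv.) arrays, 69.0 and 72.3 in 6G- BM-MDSC, and 8.37 and 11.9 in DCs, with all 5 called higher. For 6 monocyte markers the sum was 385 and 397 for MDSC (conv.), 372 and 420 for 6G- BM-MDSC, and 199 and 220 for DCs. Of these 6 only Ly6c2 was called higher, by 8.85-fold and 8.16-fold, and 1 was called lower in each MDSC group. These sums weigh each gene by the brightness of its probe. The median log2 differences from DCs, for MDSC (conv.) and 6G- BM-MDSC, were 4.09 and 3.96 for neutrophil markers. They were 3.01 and 2.71 for basophil and mast cell markers, and 0.10 and 0.07 for monocyte markers. The part of these markers in the differences of Mefv and the other members was not tested.

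Nlrc4 encodes the sensor that NAIP proteins activate once they have bound flagellin or a type III secretion protein. Its log2 level was 0.17 and 0.10 for MDSC (conv.), 0.20 and 0.17 for 6G- BM-MDSC, and -0.21 and -0.47 for DCs. The 4 MDSC arrays lay close together, above both DC arrays. The log2 differences from DCs were 0.48 (SE 0.11, adjusted p = 0.0313) for MDSC (conv.) and 0.52 (SE 0.11, adjusted p = 0.0226) for 6G- BM-MDSC, which is 1.39-fold and 1.44-fold. Both calls were lost when either array of the compared MDSC group or DCs replicate 2 was left out, and held without DCs replicate 1. Over all alternatives the log2 difference lay between 0.35 and 0.60 for MDSC (conv.) and between 0.39 and 0.65 for 6G- BM-MDSC. Leaving out an array of the third group does not change the difference, only the estimate of the spread and its degrees of freedom. It is the same fit as that of the 2 compared groups alone. That fit ended the call for MDSC (conv.) (adjusted p = 0.0592) but not for 6G- BM-MDSC (adjusted p = 0.0465). The methods' t-test, which the study's methods name without tying it to the arrays, passed neither difference, with or without adjustment.

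Nlrp1b, a sensor that DPP9 holds in check, was lower in MDSC groups. Its log2 level was -1.37 and -1.56 for MDSC (conv.), -1.98 and -2.22 for 6G- BM-MDSC, and -0.48 and -0.46 for DCs. On this probe, its brightest, the 3 groups did not overlap, with DCs highest and 6G- BM-MDSC lowest. The log2 difference from DCs was -0.996 (SE 0.12, adjusted p = 0.00526) for MDSC (conv.) and -1.63 (SE 0.12, adjusted p = 0.00132) for 6G- BM-MDSC. DCs were therefore 1.99-fold and 3.098-fold higher. The other 2 Nlrp1b probes (chr11:71030377-71030436 and chr11:70974575-70974634) were dimmer and also lower in both MDSC groups, but neither was called over all probes. Their log2 differences were -0.71 (adjusted p = 0.0568) and -0.54 (adjusted p = 0.0890) for MDSC (conv.), and -0.55 (adjusted p = 0.0999) and -0.27 (adjusted p = 0.311) for 6G- BM-MDSC. Both had a higher mean in 6G- BM-MDSC than in MDSC (conv.), by 0.17 and 0.27, and neither of these differences was called.

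The neighbouring paralog Nlrp1a had a log2 level of 7.24 and 7.23 for MDSC (conv.), 7.13 and 7.05 for 6G- BM-MDSC, and 7.53 and 7.47 for DCs on its brightest probe. The difference was -0.26 (adjusted p = 0.0518) for MDSC (conv.) and -0.41 (adjusted p = 0.0153) for 6G- BM-MDSC. A second Nlrp1a probe gave -0.51 (adjusted p = 0.0113 over all probes) and -0.47 (adjusted p = 0.0129). It read between 134 and 211 intensity units, beside 74451 to 113179 on the brightest probe. Whether the brightest probe shares runs of bases with other genes was not checked. The dimmest Nlrp1a probe, well above background on 2 of 6 arrays, gave 0.57 (adjusted p = 0.224) and -0.19 (adjusted p = 0.671), and the Nlrp1a probes thus did not all have the same sign in MDSC (conv.). The markers that, like Nlrp1b, had lower sums in MDSC groups were those of macrophages, whose summed level over 7 genes was 40.9 and 43.6 for MDSC (conv.), 40.1 and 40.7 for 6G- BM-MDSC and 105 and 118 for DCs, and those of dendritic cells, whose sum over 9 genes was 702 and 757, 689 and 742, and 1159 and 1180. The median log2 differences from DCs, for MDSC (conv.) and 6G- BM-MDSC, were -2.19 and -2.28 for macrophage markers and -0.86 and -0.88 for dendritic cell markers. The part of these markers was not tested.

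Aim2, the sensor of cytosolic double-stranded DNA, gave 2 answers. On its brightest probe the log2 level was 1.01 and 1.05 for MDSC (conv.), 1.12 and 1.04 for 6G- BM-MDSC, and 1.09 and 1.07 for DCs. These levels spanned about 0.1 log2 units, and the differences from DCs were -0.05 (95% interval -0.24 to 0.13, adjusted p = 0.607) and -0.01 (95% interval -0.19 to 0.18, adjusted p = 0.958). On the second probe the log2 level was -1.68 and -1.66 for MDSC (conv.), -2.18 and -2.23 for 6G- BM-MDSC, and -0.82 and -1.05 for DCs. That probe, like the brightest of the Nlrp1b probes, ranked DCs first and 6G- BM-MDSC last with no overlap. Its differences from DCs were -0.74 (SE 0.10, adjusted p = 0.00790 over all probes) and -1.27 (SE 0.10, adjusted p = 0.00169). With the mean of both probes Aim2 was called lower, by -0.40 (adjusted p = 0.0234) and -0.64 (adjusted p = 0.00590). The scanner files list some transcripts under only 1 of the 2 probes, which does not show that they lack the other. Which transcripts these cells make was not tested.

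Nlrp3, the most studied sensor, responds to potassium efflux and membrane damage. On the log2 scale it stood at -1.52 and -1.72 for MDSC (conv.), -1.80 and -1.53 for 6G- BM-MDSC, and -1.77 and -1.69 for DCs. All 3 groups overlapped. The differences from DCs were 0.11 (95% interval -0.22 to 0.45, adjusted p = 0.539) and 0.07 (95% interval -0.27 to 0.40, adjusted p = 0.708).

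Naip5 binds flagellin and hands the signal to Nlrc4. On its brightest probe the log2 level was 5.57 and 5.47 for MDSC (conv.), 5.33 and 5.16 for 6G- BM-MDSC, and 5.56 and 5.71 for DCs. 6G- BM-MDSC were the lowest group and did not overlap with the others, while MDSC (conv.) and DCs overlapped. The difference from DCs was -0.12 (SE 0.10, adjusted p = 0.414) for MDSC (conv.) and -0.39 (SE 0.10, adjusted p = 0.0409) for 6G- BM-MDSC. That call was lost without any 1 of the 6 arrays. Leaving out an MDSC (conv.) array does not change this difference, and is the same fit as that of the 2 compared groups alone (adjusted p = 0.0684). The call was also lost with the replicate number as a block (adjusted p = 0.0643), with no filter on dim probes (adjusted p = 0.0510) and in the methods' t-test. With the mean of its 2 probes the difference was -0.054 (adjusted p = 0.665).

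What this probe measures is uncertain. The capitals in its printed stretch match the start of the B2 element, a short interspersed repeat found throughout the mouse genome. A run of at least 20 of its 60 bases occurred in 38 of 32851 RefSeq promoters (GRCm38.p6) and in 3 other probes of the array, on either strand. None of the other 16 member probes shared a run of 20 bases with any promoter or with a probe for another gene. Only exact runs in promoters and array probes were searched, so matches elsewhere and inexact matches of any member probe were not checked. The second Naip5 probe lacks that run, but the files also list it for transcripts of Naip1, Naip6 and Naip7. Its log2 level was -3.36 and -3.16 for MDSC (conv.), -3.06 and -3.14 for 6G- BM-MDSC, and -3.19 and -3.59 for DCs. It had the opposite sign, with differences of 0.13 (adjusted p = 0.573) and 0.28 (adjusted p = 0.230), neither of them called.

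**Figure D2:**
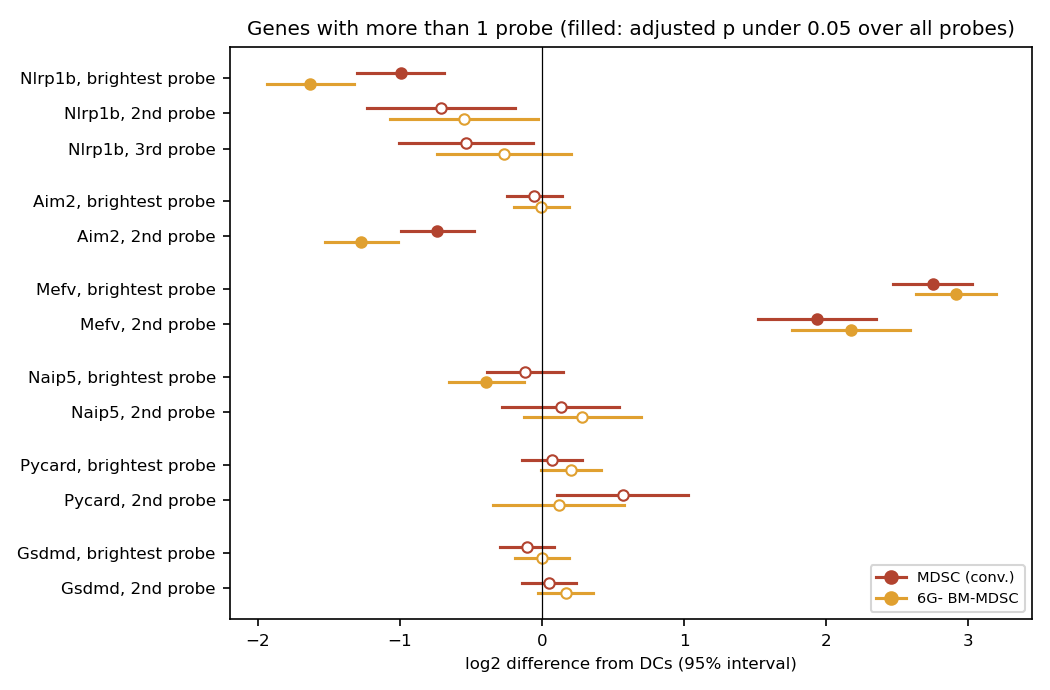
Log2 difference of each MDSC group from DCs (x axis, points, with 95% intervals as lines) for every probe of the 6 members that have more than 1 (y axis). Filled points had an adjusted p under 0.05 over all probes. The 2 Mefv probes lie on the same side, the second Aim2 probe lies below 0 while the brightest lies at 0, and the 2 Naip5 probes lie on opposite sides.

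Downstream of the sensors, Casp4 was called higher than in DCs and Pycard, Casp1 and Gsdmd were not called, a share of 1 in 4 beside 13.4% and 15% of all genes called higher. Pycard encodes ASC, the adaptor that links sensors to caspase-1. The arrays gave log2 levels of 5.82 and 5.94 for MDSC (conv.), 6.01 and 6.02 for 6G- BM-MDSC, and 5.85 and 5.78 for DCs. Both 6G- BM-MDSC arrays lay above the rest, by a small margin. The difference from DCs was 0.07 (95% interval -0.14 to 0.27, adjusted p = 0.548) for MDSC (conv.) and 0.20 (95% interval -0.004 to 0.41, adjusted p = 0.114) for 6G- BM-MDSC. The latter passed under 3 alternatives, at 0.25 (adjusted p = 0.0433) after normexp background correction, at 0.20 (adjusted p = 0.0467) with an intensity-dependent prior variance, and in the methods' t-test at its unadjusted threshold. The second probe named Pycard (chr7:135140025-135140084) lies on the plus strand, opposite to the brightest one (chr7:135136241-135136300), and was listed for a cDNA clone alone. It was not called in either comparison (adjusted p = 0.0744 and 0.645).

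Casp1, the protease of the canonical inflammasome, stood at nearly the same level throughout. In log2 units it was 3.93 and 3.89 for MDSC (conv.), 4.03 and 3.94 for 6G- BM-MDSC, and 3.97 and 3.92 for DCs. The groups compared with DCs overlapped with them, and the differences were -0.04 (95% interval -0.23 to 0.16, adjusted p = 0.749) and 0.04 (95% interval -0.15 to 0.23, adjusted p = 0.707).

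Casp4, the lipopolysaccharide-binding caspase, was raised in both MDSC groups. Levels were 3.32 and 3.41 for MDSC (conv.), 3.38 and 3.43 for 6G- BM-MDSC, and 2.10 and 2.32 for DCs. The 4 MDSC arrays lay within about 0.1 log2 units of each other and above both DC arrays. The difference from DCs was 1.16 (SE 0.10, 95% interval 0.90 to 1.42, adjusted p = 0.00215), or 2.23-fold, for MDSC (conv.), and 1.19 (SE 0.10, adjusted p = 0.00194), or 2.29-fold, for 6G- BM-MDSC. Its probe and that of Casp1 (chr9:5307206-5307265) lie close together on chromosome 9, and whether their differences from DCs differed from each other was not tested.

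Gsdmd encodes the pore-forming protein that both caspases cleave. The log2 levels were 3.87 and 3.93 for MDSC (conv.), 3.98 and 4.03 for 6G- BM-MDSC, and 4.03 and 3.99 for DCs. The differences were -0.11 (95% interval -0.29 to 0.08, adjusted p = 0.317) and -0.0019 (95% interval -0.19 to 0.18, adjusted p = 0.986). The second Gsdmd probe (chr15:75695520-75695884, a span that is longer than the probe and so joins separate pieces of the genome) was not called either, at 0.05 (adjusted p = 0.658) and 0.17 (adjusted p = 0.151).

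**Figure D3:**
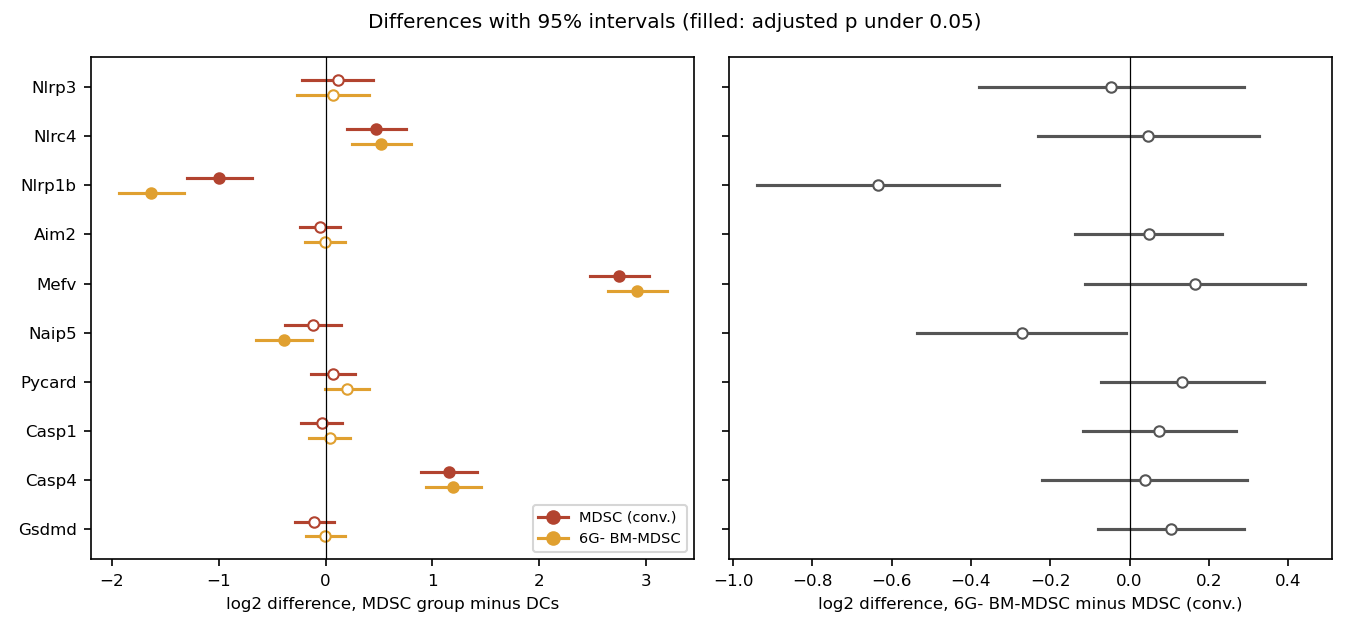
Log2 differences (x axes) of the 10 genes (y axis) with 95% intervals, for each MDSC group minus DCs on the left and for 6G- BM-MDSC minus MDSC (conv.) on the right. Filled points had an adjusted p under 0.05. On the left the intervals of Mefv, Casp4, Nlrc4 and Nlrp1b exclude 0 in both groups, and on the right no point is filled.

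The promoters of the members most raised in MDSC groups are shown because Mefv and Casp4 moved together. The RefSeq promoter table (GRCm38.p6) held 12 entries for 9 of the 10 genes, each from 250 bases before to 50 bases after a start. The printed letters are the 250 bases before the start of Mefv (entry chr16:3718075-3718374, minus strand) and before the first of 2 starts of Casp4 (entry chr9:5308599-5308898, plus strand).
Mefv: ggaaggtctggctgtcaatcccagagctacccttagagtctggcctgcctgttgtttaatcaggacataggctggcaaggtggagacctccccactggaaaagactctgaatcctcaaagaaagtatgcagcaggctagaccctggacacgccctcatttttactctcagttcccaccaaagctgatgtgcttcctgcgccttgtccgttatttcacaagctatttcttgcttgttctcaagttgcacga
Casp4: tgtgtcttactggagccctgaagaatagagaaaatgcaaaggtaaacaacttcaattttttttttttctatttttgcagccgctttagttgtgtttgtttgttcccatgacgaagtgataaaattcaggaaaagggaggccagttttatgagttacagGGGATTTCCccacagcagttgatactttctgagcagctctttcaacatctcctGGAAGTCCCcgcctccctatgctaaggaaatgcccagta
The capitals mark 2 matches to the NF-κB letters GGGANTTNC, 1 on each strand, in a window where 4.26% of the 32851 promoters held a match on either strand. Among the members, both Casp4 entries and the Aim2 entry held these letters. The 2 Casp4 entries overlap and hold the same 2 matches, so they are not separate observations. These letters were added after the Casp4 sequence had been read. Of 3 further sets of letters searched on both strands, the PU.1 core GAGGAA (28.3% of all promoters), the C/EBP letters TTGCNNAA (10.8%) and the interferon response letters GAAANNGAA (8.56%), none occurred in the Mefv or Casp4 entries. GAGGAA occurred in entries of Nlrp3, Nlrp1b, Aim2, Pycard and Casp1, and TTGCNNAA in entries of Nlrc4, Nlrp1b and Pycard.

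Depletion of Ly-6G+ cells before culture was examined by setting 6G- BM-MDSC against MDSC (conv.). None of the 10 members was called by limma, beside 0.0137% of all genes (3 of 21862). At an unadjusted p under 0.05, 2 members passed, beside 10.8% of all genes. These were Nlrp1b, at a log2 difference of -0.64 (SE 0.12, 95% interval -0.94 to -0.33, adjusted p = 0.277), and Naip5, at -0.27 (SE 0.10, adjusted p = 0.450). The other 2 Nlrp1b probes had the opposite sign, at 0.17 and 0.27 (adjusted p = 0.797 and 0.637), and so did the second Naip5 probe, at 0.15 (adjusted p = 0.761). The second Aim2 probe was lower by -0.53 (adjusted p = 0.291). For the remaining 8 members the differences lay between -0.05 (Nlrp3) and 0.17 (Mefv, 95% interval -0.11 to 0.44). The widest 95% interval of a member was that of Nlrp3, from -0.38 to 0.29. The methods' t-test also called no member here, at its unadjusted threshold or after adjustment, beside 1782 and 0 of all 21862 genes.

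Beyond the members, 51 other genes of the pathway were listed in 4 groups by role, and 47 of them were tested. Each MDSC group had 9 of them called higher and 15 called lower than DCs, with a median of -0.11 for MDSC (conv.) and -0.02 for 6G- BM-MDSC. These are 19.1% and 31.9% of the 47, beside 13.4% higher and 15.8% lower over all genes for MDSC (conv.) and 15% and 17.8% for 6G- BM-MDSC, and these shares also stand beside the counts of each list. None was called between the MDSC groups, where 6 of 47 passed an unadjusted p under 0.05, beside 10.8% of all genes. The tested share was limited by Nlrp6, Naip1, Naip6 and Casp12, whose probes did not pass the filter. The genes called higher include Nlrp12, which was well above background on the MDSC arrays alone.

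For other NLR and DNA sensors, 11 were tested. MDSC (conv.) had 3 higher (27.3%) and 3 lower (27.3%, median 0.12), and 6G- BM-MDSC had 3 higher (27.3%) and 5 lower (45.5%, median 0.19). In both comparisons the genes called higher include Nlrp12, which passed the filter through its MDSC arrays alone. Both medians were the same with Nlrp12 at its bound. Nlrp12, an NLR known to dampen NF-κB signaling, was well above background on all 4 MDSC arrays, at log2 levels between -3.87 and -3.62, and on neither DC array. It was at least 1.998-fold higher than in DCs for MDSC (conv.) and at least 2.27-fold for 6G- BM-MDSC. The adjusted p-values of the fitted differences, which use the dim DC readings and not these bounds, were 0.00206 and 0.00170. The peptidoglycan sensors moved apart. Nod1 was higher by 1.69 (adjusted p = 0.00138) and 1.58 (adjusted p = 0.00158), whereas Nod2 was lower by -0.81 (adjusted p = 0.00390) and -0.64 (adjusted p = 0.00723). Nlrc5, a transactivator of MHC class I genes, was lower by -0.57 (adjusted p = 0.0162) and -0.80 (adjusted p = 0.00596).

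Among 11 genes of licensing and regulation, MDSC (conv.) had 2 higher (18.2%) and 4 lower (36.4%) than DCs (median -0.24), and 6G- BM-MDSC had 1 higher (9.09%) and 4 lower (36.4%, median 0.04). Pstpip1, which encodes a binding partner of pyrin, was higher like Mefv. Its log2 level was 2.97 and 3.13 for MDSC (conv.), 3.15 and 3.26 for 6G- BM-MDSC and 1.82 for both DC arrays, and the differences were 1.23 (adjusted p = 0.00142) and 1.38 (adjusted p = 0.00101). Gbp2 and Gbp5, interferon-induced guanylate-binding proteins of a family that exposes bacterial lipopolysaccharide to caspase-11, were lower. For Gbp2 the differences were -1.18 (adjusted p = 0.00190) and -0.95 (adjusted p = 0.00333), and for Gbp5 -0.86 (adjusted p = 0.0199) and -0.73 (adjusted p = 0.0292). Ptpn22, a phosphatase that acts on NLRP3, was lower by -0.49 (adjusted p = 0.0121) and -0.56 (adjusted p = 0.00765).

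Among 13 substrates, other caspases and cell death effectors, MDSC (conv.) had 4 higher (30.8%) and 3 lower (23.1%, median 0.30), and 6G- BM-MDSC had 5 higher (38.5%) and 3 lower (23.1%, median 0.21). The interleukin substrates did not move as a set. The log2 level of Il1b was 2.05 and 2.49 for MDSC (conv.), 3.24 and 3.34 for 6G- BM-MDSC, and -0.29 and 1.28 for DCs. Its DC arrays were thus much farther apart than those of any member. The difference was 1.77 (SE 0.52, adjusted p = 0.0611) for MDSC (conv.) and 2.80 (SE 0.52, adjusted p = 0.0170) for 6G- BM-MDSC. On the other 2 Il1b probes the differences were 2.23 (adjusted p = 0.0245 over all probes) and 1.69 (adjusted p = 0.0538) for MDSC (conv.), and 3.44 (adjusted p = 0.00695) and 2.79 (adjusted p = 0.0133) for 6G- BM-MDSC.

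Il1a, which is not cleaved by caspase-1, had a log2 level of -3.93 and -3.77 for MDSC (conv.), -2.79 and -2.69 for 6G- BM-MDSC, and -4.61 and -4.41 for DCs. Its DC readings were well above background but near the lowest such log2 signal on those arrays (-4.80 and -4.82). Il1a was higher than in DCs by 0.66 (adjusted p = 0.0133) and 1.77 (adjusted p = 0.000882). Il18 went the other way, with a log2 level of 1.098 and 1.18 for MDSC (conv.), 1.14 and 1.03 for 6G- BM-MDSC and 1.77 and 2.08 for DCs, and differences of -0.79 (adjusted p = 0.0120) and -0.84 (adjusted p = 0.00928). Ninj1, which ruptures the membrane after gasdermin pores form, was higher by 0.60 (adjusted p = 0.0118) and 1.08 (adjusted p = 0.00222). Ripk3, the necroptosis kinase, was higher by 1.09 (adjusted p = 0.00195) and 1.13 (adjusted p = 0.00175).

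Among 12 genes of priming and transcription, limma called none higher than in DCs, beside 13.4% and 15% of all genes, and 1 was higher in each comparison at an unadjusted p under 0.05 (0 and 1 by the methods' t-test). MDSC (conv.) had 5 lower (41.7%, median -0.22) and 6G- BM-MDSC had 3 lower (25%, median -0.15), beside 15.8% and 17.8%. Irf8, the transcription factor of monocyte and dendritic cell lineages, was lower by -1.45 (adjusted p = 0.00268) and -1.26 (adjusted p = 0.00380). The Toll-like receptor adaptor Ticam1 was lower by -0.46 (adjusted p = 0.0117) and -0.51 (adjusted p = 0.00808), and the ubiquitin ligase Traf6 by -0.35 (adjusted p = 0.0381) and -0.34 (adjusted p = 0.0381).

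**Figure D4:**
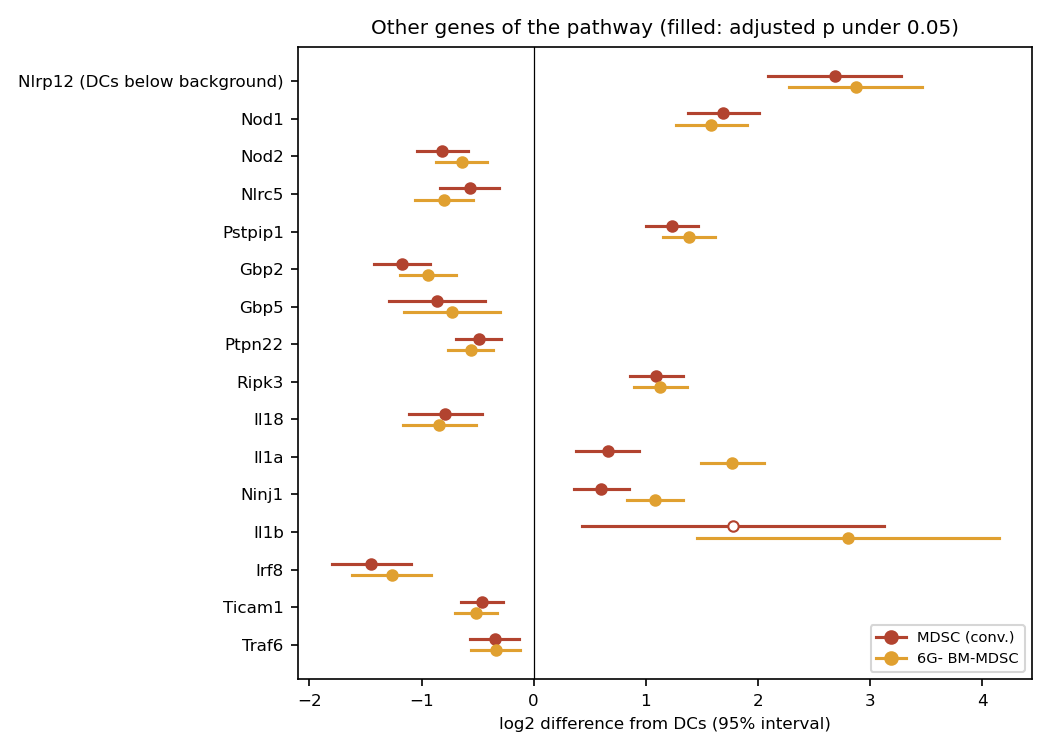
Log2 difference from DCs (x axis, points with 95% intervals) of other genes of the pathway (y axis): up to 4 per list that were called in both comparisons, and Il1b. Filled points had an adjusted p under 0.05, and the Nlrp12 points are fitted values against DCs that were not well above background. Nod1, Pstpip1 and Ripk3 lie above 0, and Nod2, Gbp2, Il18 and Irf8 below 0, in both MDSC groups.

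The NAIP family was read in full because Naip5 has near-identical relatives next to it. Naip2, which recognizes a rod protein of bacterial secretion systems, had a log2 level of 3.29 and 3.43 for MDSC (conv.), 3.48 and 3.62 for 6G- BM-MDSC, and 3.16 and 3.32 for DCs. It was not called, at 0.12 (adjusted p = 0.423) and 0.31 (adjusted p = 0.0808). The Naip6 probe (chr13:101051114-101051173, minus strand), whose first 30 bases are printed here because its readings split the replicates, was well above background on 3 arrays.
Naip6: cagaagtgttctttgtgcatctagtgctta
On this probe the log2 level was 0.53 on replicate 1 and -7.62 on replicate 2 for MDSC (conv.), 0.45 and -7.67 for 6G- BM-MDSC, and 0.74 and -7.01 for DCs. Replicate 1 of every group was thus well above background and replicate 2 of every group was not. The brighter of 2 Naip1 probes gave -2.82 and -6.69, -2.80 and -7.74, and -2.57 and -7.08 in the same order, with the same split. Naip7, chosen after its values were seen, had 2 probes that split likewise. Neither Naip5 probe nor the Naip2 probe did, and the second Naip1 probe was well above background on no replicate 1 or replicate 2 array.

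**Figure D5:**
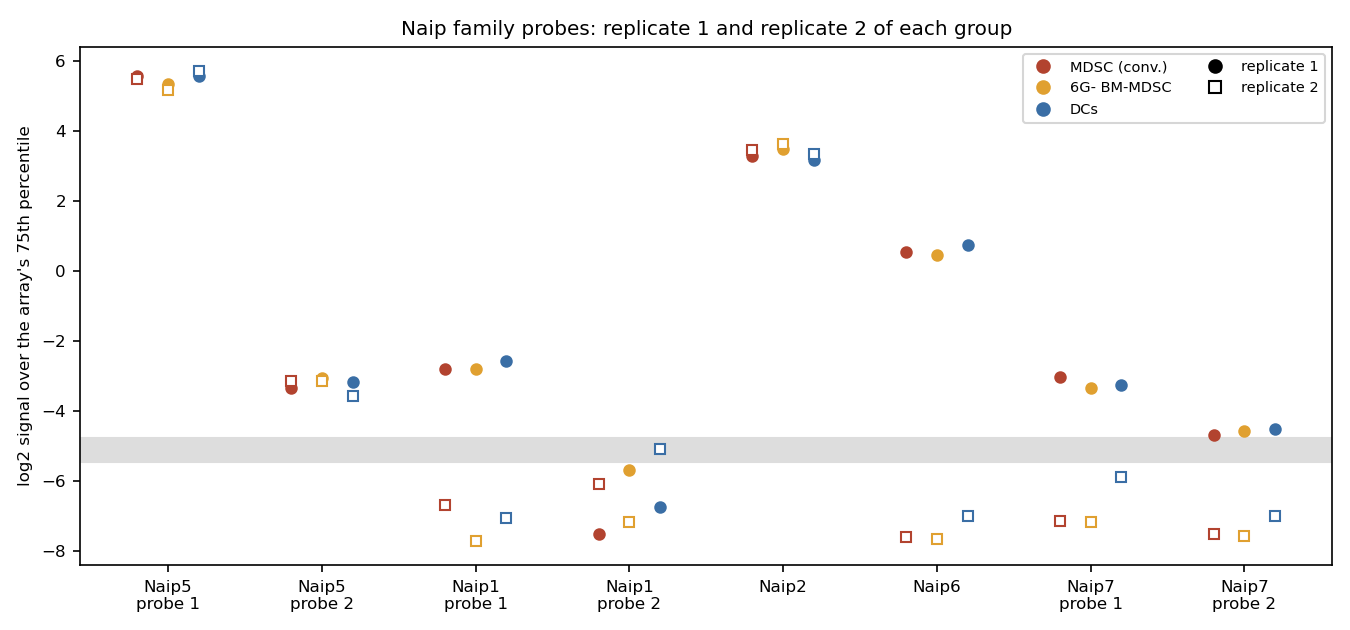
Log2 signal over the 75th percentile of the array (y axis) for each NAIP family probe (x axis), by group (colour) and replicate (filled circle for 1, open square for 2). The grey band spans the lowest signal that was well above background on each of the 6 arrays. The filled circles of Naip6, Naip7 and the first Naip1 probe lie above the band and their open squares below it, while circles and squares of Naip5 and Naip2 lie together.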

How the data were processed

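Total RNA was labelled with Cy3 from an oligo-dT primer and hybridized to 6 Agilent mouse arrays, 2 each of MDSC (conv.), 6G- BM-MDSC and DCs, grouped by the deposited titles. The authors extracted spot intensities with Agilent Feature Extraction (10.7.3.1 per the file headers, 10.5.1.1 in the submitters' processing notes), which subtracted background and detrended each array. The deposited value table held the same processed intensities, rounded. Positions are mm9, as in the files.

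Control probes and spots marked as outliers were left out, replicate spots averaged, and values expressed as log2 over each array's own 75th percentile. A probe was tested if well above background on both arrays of a group, which kept 33484 of 56605. Names were updated through RefSeq (32994 probes matched). The brightest probe stood for its gene. Limma 3.58.1 in R 4.3.3 was fitted once to all 6 arrays with group as the only factor (3 residual degrees of freedom) and tested on simulated data. The number of arrays limits the precision.

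The members and gene lists were chosen with earlier results of these data known. All members and probes are given. In each pathway list, counts are given, with up to 4 genes called in both DC comparisons by the smaller absolute difference, and Il1b, Il1a, Il18, Nlrp1a, Naip1, Naip2 and Naip6 whatever their values. Marker lists are given as counts, sums, medians or called genes. One marker list is not reported here. Alternatives were another background correction or normalization, other filters, probe rules, variance models and samples, the methods' t-test and each array left out. The methods' t-test is Student's t-test, which the study's methods name among its general statistics and not for the arrays.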

Additional observations from a re-analysis of the deposited data

Results flagged for a closer look

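A signal appeared in probes outside the comparisons with DCs, which required both arrays of a group to be well above background. The Naip6 probe was well above background on all 3 replicate 1 arrays and on none of the 3 replicate 2 arrays, and replicate 1 was at least 47.1-fold above replicate 2 in each group. The first Naip1 probe showed the same split at no less than 4.75-fold, and the 2 Naip7 probes at no less than 2.96-fold and 1.22-fold. These are lower bounds against the lowest signal well above background on the replicate 2 array, and the smallest of 3 groups is given. Across the array, 10 probes differed by more than 1.5 log2 units between replicates 1 and 2 in the same direction in all 3 groups while being well above background on all arrays of one number. Of these 10, the 4 NAIP probes lie on chromosome 13. The study's methods name a single mouse strain, and the labels do not say how replicate 1 differed from replicate 2.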

How the results depend on the processing

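The calls of Mefv, Casp4 and Nlrp1b against DCs kept their side of the threshold under all alternatives but the adjusted t-test and, for Nlrp1b in MDSC (conv.), the 2-fold minimum. With the methods' t-test, 3 and 4 of the 10 members passed at its unadjusted threshold against DCs (MDSC (conv.) and 6G- BM-MDSC), beside 7075 and 7490 of all 21862 genes. After adjustment 0 and 0 members passed, where 7 and 66 of all genes passed. A 2-fold minimum left 2 and 3 members. Leaving out 1 array gave 3 to 4 called members in each DC comparison and 0 to 0 between MDSC groups. For 6G- BM-MDSC the count fell from 5 to 3 without 6G- BM-MDSC replicate 1, 6G- BM-MDSC replicate 2 or DCs replicate 2, where the Nlrc4 and Naip5 calls were lost. Arrays left alone in a group were taken to vary like the others. With the replicate number as a block, 4, 4 and 0 members were called, and only Naip5 in 6G- BM-MDSC lost its call. Deviations of same-numbered arrays correlated at 0.11, 0.12 and 0.04 over genes. Such a correlation cannot show a shared source that changes few genes, and 10 probes split by number in all 3 groups. Of 6 arrays, 4 correlated better with their own number in the other groups. The labels do not say whether the numbers pair the samples, and the main fit did not pair them. Without a filter the median of all genes fell to -0.19 and -0.21 against DCs.

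Signs turned only where a member was not called, or for Naip5. With normexp these were Casp1 (0.063, MDSC (conv.) against DCs), Nlrp3 (-0.0063) and Gsdmd (0.0072) in 6G- BM-MDSC against DCs, and Casp4 (-0.078) between MDSC groups. With quantile normalization it was Aim2 (0.015, 6G- BM-MDSC against DCs). With the mean of probes they were Naip5 (0.0055, MDSC (conv.) against DCs), Gsdmd (0.082, 6G- BM-MDSC against DCs), and Aim2 (-0.24) and Pycard (-0.16) between MDSC groups. Leaving out 1 array, differences crossed 0 for Nlrp3 (-0.069 to 0.21), Aim2 (-0.045 to 0.034), Casp1 (-0.0042 to 0.084) and Gsdmd (-0.023 to 0.020) in 6G- BM-MDSC against DCs, and for Nlrp3 (-0.18 to 0.092) and Casp4 (-0.0069 to 0.083) between MDSC groups. With Naip5 read from its second probe, an alternative chosen after seeing the data, it was 0.13, 0.28 and 0.15, and 4 members were called in each DC comparison. The cause was not tested.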
